A study of Chlorocebus sabaeus with 45 samples.

Results

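Whole-blood RNA levels were described for 9 genes of the insulin signalling pathway: the insulin receptor gene INSR, the adaptor gene IRS2, the phosphoinositide 3-kinase subunit gene PIK3R1, the kinase genes AKT1, AKT2 and GSK3B, and the transcription factor genes FOXO1, FOXO3 and FOXO4. They were picked by their symbols from the 33994 gene rows of each sample, and all 9 were among the 18753 genes that passed the filter on low values. The samples came from 15 wild-born juvenile male vervet monkeys (Chlorocebus sabaeus, an Old World monkey), 1 from each troop, that were moved from their troops to individual housing for quarantine. Each animal gave blood on day 0, on day 3 and on day 14, so that 45 libraries were compared and the later samples were matched to the same animal's baseline. These days follow the sample labels, while other descriptions of the sampling differ from them in places, by a later day for the second sample or for the last one. The day 0 baseline was drawn in the field within minutes of trapping, under ketamine and xylazine. Both later samples were drawn in the primate facility under dexmedetomidine and midazolam, so place and sedation cannot be told apart from time in every comparison with day 0. No animal stayed in its troop as a control for the passage of time. The study asked how the blood transcriptome responds to relocation and social separation.

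Insulin binding activates the receptor, which phosphorylates insulin receptor substrates such as IRS2, and these recruit phosphoinositide 3-kinase through regulatory subunits such as the product of PIK3R1. The lipid made by that kinase draws AKT kinases to the membrane, where they are activated and phosphorylate, among others, GSK3B and the FOXO factors. Phosphorylated FOXO factors leave the nucleus, while unphosphorylated ones switch on genes for stress resistance, cell cycle arrest and survival. In blood cells FOXO1 is known for maintaining naive lymphocytes, and FOXO3 for protecting red cell precursors and blood stem cells from oxidative damage. RNA levels do not show phosphorylation, so the activity of these kinases and factors was not measured.

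Levels are given as FPKM, fragments per kilobase of gene length and scaled to the library's total on genes, divided by a scaling factor per library (TMM, the trimmed mean of M values). They are called scaled FPKM below. Since they are per length, levels of different genes can be compared. Changes are log2 fold changes on the log2(scaled FPKM + 0.1) scale from limma, and a gene was called where its p-value, adjusted by Benjamini-Hochberg over all tested genes, was under 0.05. This main fit had no term for the animal, so its p-values do not use the matching of samples. A fit with the animal as a block was run as an alternative. Between 13216280 and 31469337 fragments fell on genes per library. No member rested on fewer than 100 fragments in any library, and that lowest number was for IRS2. The day 0 libraries of animals 7, 11 and 15 stood apart from the other 42 on the second principal component, and their summed neutrophil markers (1512 to 1784 scaled FPKM) lay above those of the other 12 animals on day 0 (152 to 979). Results that change without these 3 animals are given both ways.

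AKT2, FOXO3 and FOXO4 rose on day 3 and on day 14, while FOXO1 and GSK3B fell on day 14. On day 3, 3 of the 9 genes were called higher and 0 lower, against 12.2% of all tested genes called (6.01% higher and 6.19% lower). On day 14, 3 were higher and 2 lower than on day 0, against 36.0% of all genes called (18.8% higher and 17.3% lower). The median log2 fold change of the 9 genes on day 14 was 0.07, beside −0.02 for all tested genes. Both comparisons use the same day 0 samples. Between day 3 and day 14, 0 of the 9 genes were called by limma, against 13.4% of all genes (8.38% higher and 5.01% lower), and 6 had an unadjusted p under 0.05, as had 30.7% of all genes. With the animal as a block the same interval gave 4 called genes (AKT2 and FOXO4 higher, INSR and FOXO1 lower), when 23.7% of all genes were called, and limma's voom fit of the recovered fragment counts gave 2, with 15.2% of all genes. With the RNA integrity number added to the block, FOXO1 alone of the 9 was called (−0.25, adjusted p = 0.0398), beside 9.80% of all genes. In no animal was that number, as the study lists it, lower on day 14 than on day 0, and in most it was higher. Fits that include it therefore cannot fully separate RNA quality from time. Fewer cells of a type and less RNA per cell cannot be told apart in whole blood.

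**Figure D1:**
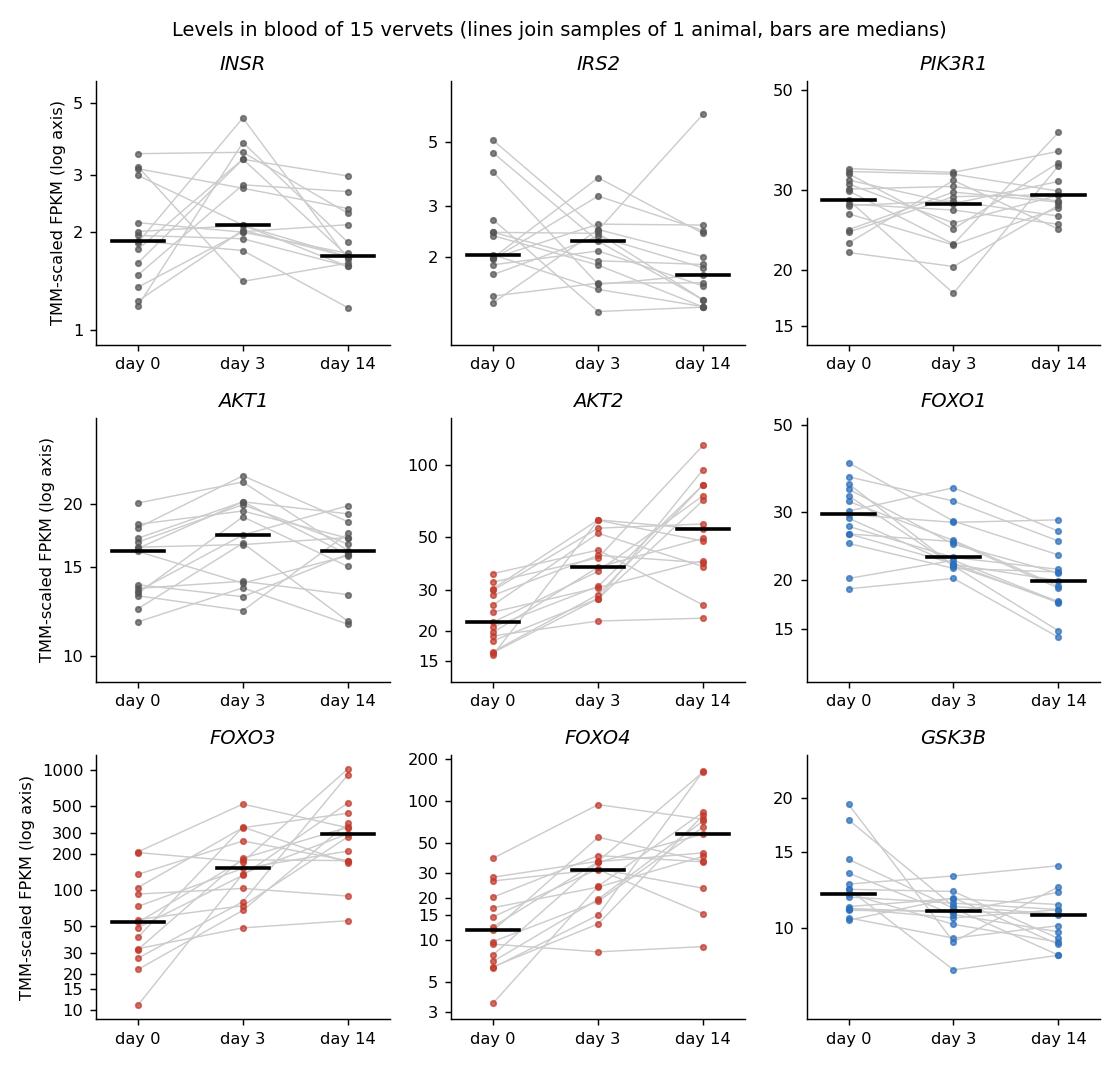
Scaled FPKM (log axis, a different range in each panel) of the 9 genes on days 0, 3 and 14 in 15 vervets, where points are libraries, grey lines join the samples of 1 animal and black bars are medians. Red marks genes called higher on day 14 than on day 0, blue genes called lower and grey genes not called, and the median of FOXO3 went from 53.6 to 294 while that of AKT1 went from 16.1 to 16.2.

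**Figure D2:**
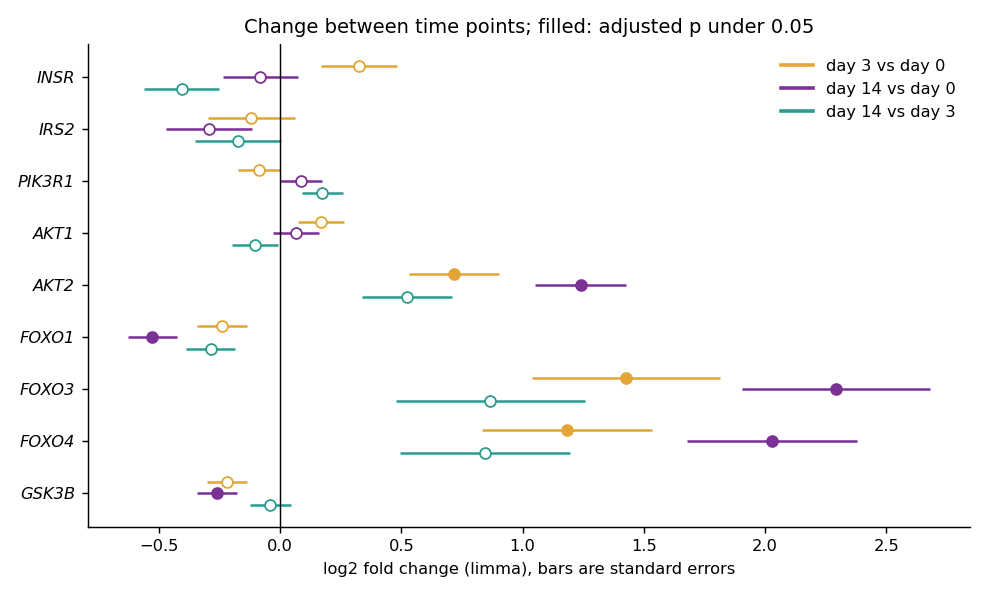
Log2 fold changes from limma with their standard errors for the 9 genes in the 3 comparisons, fitted with no term for the animal. Filled points passed an adjusted p of 0.05 and open points did not. FOXO3 and FOXO4 lie farthest to the right, at 2.29 and 2.03 on day 14 vs. day 0, and no filled point belongs to day 14 vs. day 3.

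INSR, which encodes the receptor itself, was the gene with the lowest median on every day. Within libraries it was below IRS2 in 10 of 15 on day 0, but in only 5 on day 3 and 6 on day 14. INSR ranged from 1.19 to 3.49 scaled FPKM on day 0 (median 1.88), from 1.41 to 4.50 on day 3 (median 2.11) and from 1.17 to 2.98 on day 14 (median 1.69). The 3 groups overlapped over most of their range. Its log2 fold change was 0.32 on day 3 (SE 0.16, adjusted p = 0.175) and −0.08 on day 14 (adjusted p = 0.718). From day 3 to day 14 it was lower in 13 of 15 animals by a log2 fold change of −0.41 (adjusted p = 0.0698, and 0.0481 with the animal as a block). Without animals 7, 11 and 15 the day 3 value was 0.56 (adjusted p = 0.0360), and from day 3 to day 14 it was −0.47 (adjusted p = 0.0373). With the RNA integrity number of each sample as a term and the animal as a block, the day 3 value was 0.45 (adjusted p = 0.0430), and from day 3 to day 14 it was −0.27 and not called (adjusted p = 0.260). Without TMM scaling INSR was lower on day 14 than on day 0 (−0.48, adjusted p = 0.0204) and than on day 3 (−0.77, adjusted p = 0.00217).

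IRS2, the adaptor that carries the signal from the receptor, was nearly as low. IRS2 ranged from 1.396 to 5.05 scaled FPKM on day 0 (median 2.04), from 1.302 to 3.76 on day 3 (median 2.27) and from 1.35 to 6.22 on day 14 (median 1.74). The 3 highest day 0 values, 3.93, 4.57 and 5.05, belonged to the libraries of animals 7, 11 and 15. The highest value on day 14 was that of animal 15, with the next at 2.58. No comparison was called with TMM scaling, with log2 fold changes of −0.12 on day 3 (SE 0.18, adjusted p = 0.735) and −0.29 on day 14 (adjusted p = 0.203). Without TMM scaling IRS2 was called lower on day 14 than on day 0 (−0.70, adjusted p = 1.82e-04) and than on day 3 (−0.54, adjusted p = 0.00659).

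PIK3R1, the regulatory subunit that holds the catalytic subunit of phosphoinositide 3-kinase in check and docks it on the adaptor, lay far above the receptor and varied little between animals. PIK3R1 ranged from 21.8 to 33.5 scaled FPKM on day 0 (median 28.5), from 17.7 to 32.9 on day 3 (median 28.0) and from 24.6 to 40.3 on day 14 (median 29.2). Its log2 fold changes were −0.09 on day 3 (SE 0.09, adjusted p = 0.569) and 0.09 on day 14 (adjusted p = 0.451). Without TMM scaling the day 14 value was −0.34 (adjusted p = 0.0185), when the median of all genes on day 14 vs. day 0 was −0.36.

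The AKT kinases share their domain structure and many substrates, AKT1 being tied to growth and survival and AKT2 to glucose uptake. AKT1 ranged from 11.7 to 20.1 scaled FPKM on day 0 (median 16.1), from 12.3 to 22.8 on day 3 (median 17.4) and from 11.6 to 19.9 on day 14 (median 16.2). The groups overlapped almost fully, and the log2 fold changes were 0.17 on day 3 (SE 0.10, adjusted p = 0.257) and 0.07 on day 14 (adjusted p = 0.626). Without TMM scaling AKT1 was at −0.36 on day 14 vs. day 0 (adjusted p = 0.0785) and called lower on day 14 vs. day 3 (−0.49, adjusted p = 0.0246). AKT2 ranged from 16.0 to 35.0 scaled FPKM on day 0 (median 21.9), from 22.1 to 58.8 on day 3 (median 37.3) and from 22.7 to 121 on day 14 (median 53.6). Of the 15 samples, 9 on day 3 and 13 on day 14 lay above the highest day 0 value, and the 2 that did not on day 14 were those of animals 4 and 13. The mean of AKT2 went from 23.6 ± 6.27 (SD, n = 15) to 39.3 ± 11.99 on day 3 and 59.9 ± 27.4 on day 14. Its log2 fold change was 0.72 on day 3 (SE 0.19, adjusted p = 0.00982, higher in 15 of 15 animals) and 1.24 on day 14 (SE 0.19, adjusted p = 3.64e-06, higher in 14). Without animals 7, 11 and 15 the day 3 change was 0.63 (adjusted p = 0.0502). From day 3 to day 14 the change of 0.52 did not pass without the block (adjusted p = 0.0527, and 0.0365 with it), and without animals 7, 11 and 15 it was 0.56 (adjusted p = 0.0438). Without TMM scaling it was 0.14 (adjusted p = 0.382), and the change of AKT2 from day 0 to day 14 was 0.81 (adjusted p = 1.83e-06).

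Among the FOXO factors, which bind the same core DNA motif, FOXO3 and FOXO4 went one way and FOXO1 the other. FOXO3 ranged from 10.9 to 208 scaled FPKM on day 0 (median 53.6), from 48.3 to 520 on day 3 (median 151) and from 55.5 to 1020 on day 14 (median 294). Relative to the mean, its spread was the widest of the 9 genes on every day, with an SD of 82.3% of the mean on day 0. On day 14, 10 of 15 samples lay above the highest day 0 value, and the highest samples were those of animals 15 and 8 (1020 and 912). The log2 fold change of FOXO3 was 1.43 on day 3 (SE 0.39, adjusted p = 0.0130) and 2.29 on day 14 (SE 0.39, adjusted p = 1.65e-05), and it was higher in 14 of 15 animals on each day. Animal 13 went from 92.5 to 89.0 between day 0 and day 14. Before TMM scaling its FOXO3 went from 93.4 to 102 FPKM, and FOXO3 was higher in 15 of 15 animals on each day.

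FOXO4 ranged from 3.51 to 38.6 scaled FPKM on day 0 (median 11.7), from 8.18 to 93.7 on day 3 (median 32.0) and from 8.93 to 163 on day 14 (median 57.5). Animals 8 and 15 were again the highest on day 14 (163 and 161), and 10 of 15 samples lay above all day 0 values. Its log2 fold change was 1.18 on day 3 (SE 0.35, adjusted p = 0.0214, higher in 14 animals) and 2.03 on day 14 (SE 0.35, adjusted p = 2.07e-05, higher in 13). Without animal 11 the day 3 call was lost, at 1.11 (adjusted p = 0.0520). The animals that did not follow on day 14 were animal 4 (9.30 to 8.93) and animal 13 (26.5 to 15.4). Before TMM scaling animal 4 went up, from 11.3 to 11.9 FPKM, while animal 13 still went down, from 26.8 to 17.6.

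FOXO1 ranged from 19.0 to 40.03 scaled FPKM on day 0 (median 29.5), from 20.2 to 34.5 on day 3 (median 22.9) and from 14.3 to 28.6 on day 14 (median 19.98). The groups overlapped, but every animal had less FOXO1 on day 14 than on day 0. The mean went from 29.6 ± 5.86 (SD, n = 15) to 24.9 ± 4.17 and 20.5 ± 4.09. FOXO1 fell by 0.53 on the log2 scale on day 14 (SE 0.10, adjusted p = 9.08e-05), and without TMM scaling the value was −0.95 (adjusted p = 6.52e-05). On day 3 the log2 fold change was −0.24 (adjusted p = 0.119, and 0.0209 with the animal as a block), and with the RNA integrity number added to the block it was −0.21 and not called (adjusted p = 0.0695). From day 3 to day 14 it was −0.29 (adjusted p = 0.0524, and 0.00657 with the block), lower in 14 of 15 animals. Without TMM scaling the value from day 3 to day 14 was −0.67 (adjusted p = 0.00750).

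GSK3B encodes a kinase that restrains glycogen synthesis and is switched off when AKT phosphorylates it. GSK3B ranged from 10.4 to 19.3 scaled FPKM on day 0 (median 11.99), from 7.97 to 13.2 on day 3 (median 10.9) and from 8.62 to 13.9 on day 14 (median 10.7). On day 14, 7 samples lay below all day 0 values and the other 8 lay among them. The log2 fold change was −0.22 on day 3 (SE 0.08, adjusted p = 0.0769) and −0.26 on day 14 (adjusted p = 0.0129, lower in 12 animals). The day 14 call was lost without animals 7, 11 and 15 (−0.15, adjusted p = 0.140) and when the RNA integrity number of each sample was a covariate (−0.15, adjusted p = 0.293). Without TMM scaling GSK3B was lower by more, at −0.68 on day 14 vs. day 0 (adjusted p = 2.73e-06), and at −0.42 on day 14 vs. day 3 (adjusted p = 0.00478, against −0.04 and 0.785 with it).

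Paralogs were then set against each other within each library, where the scaling between libraries cancels. The log2 ratio of AKT2 to AKT1 rose by 0.55 ± 0.51 (SD, n = 15) from day 0 to day 3 and by 1.17 ± 0.82 from day 0 to day 14, in 14 of 15 animals each (adjusted p = 3.66e-04 for both, two-sided exact sign-flip test over animals, 12 tests). From day 3 to day 14 it rose by 0.63 ± 0.94 in 11 animals (adjusted p = 0.0317), and this call was lost when animal 3, 8, 9, 12, 14 or 15 was left out (adjusted p from 0.0511 to 0.0635). AKT2 was above AKT1 in every library, by a geometric mean of 1.502-fold on day 0, 2.19-fold on day 3 and 3.38-fold on day 14. The lowest of these ratios, 1.002 in animal 8 on day 0, was at parity.

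FOXO3 parted from FOXO1 by more. The log2 ratio of FOXO3 to FOXO1 rose by 1.67 ± 1.12 on day 3 (14 of 15 animals) and by 2.82 ± 1.75 on day 14 (15 of 15), with adjusted p = 3.66e-04 for both, and by 1.15 ± 1.41 from day 3 to day 14 (11 of 15, adjusted p = 0.0105). The unadjusted p on day 14 vs. day 0, 6.1e-05, is the smallest the 32768 sign flips can give. FOXO3 was 1.92-fold as high as FOXO1 on day 0, where 3 of 15 animals had more FOXO1, and 13.6-fold as high on day 14, where the ratio ran from 2.07 in animal 4 to 70.4 in animal 15. Without animals 7, 11 and 15 the excess on day 0 did not pass (log2 ratio 0.56, adjusted p = 0.124).

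FOXO4 went from below FOXO1 on day 0 to above it on day 14 in 11 of 15 animals. FOXO4 was below FOXO1 in 13 of 15 libraries on day 0, at 0.414 of its level (adjusted p = 0.00155). It was above FOXO1 in 8 libraries on day 3 (1.11-fold, adjusted p = 0.570) and in 13 on day 14 (2.44-fold, adjusted p = 0.00315). Without animals 7, 11 and 15 the mean log2 ratio on day 3 was −0.16 (adjusted p = 0.549). The log2 ratio of FOXO4 to FOXO1 rose by 1.42 ± 0.91 on day 3, by 2.56 ± 1.82 on day 14 (adjusted p = 3.66e-04 for both, 14 of 15 animals each) and by 1.13 ± 1.41 from day 3 to day 14 (adjusted p = 0.0122, 11 animals).

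FOXO4 and FOXO3 kept a narrower ratio. FOXO4 was at 0.216 of FOXO3 on day 0, 0.182 on day 3 and 0.180 on day 14, below it in every library. The log2 ratio moved by −0.24 ± 0.47 on day 3 (adjusted p = 0.0772), by −0.26 ± 0.45 on day 14 (adjusted p = 0.0495, lower in 11 animals) and by −0.02 ± 0.39 between them (adjusted p = 0.848). The day 14 call was lost when any 1 of 11 animals was left out, all but animals 1, 7, 12 and 15 (adjusted p from 0.0571 to 0.0979).

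**Figure D3:**
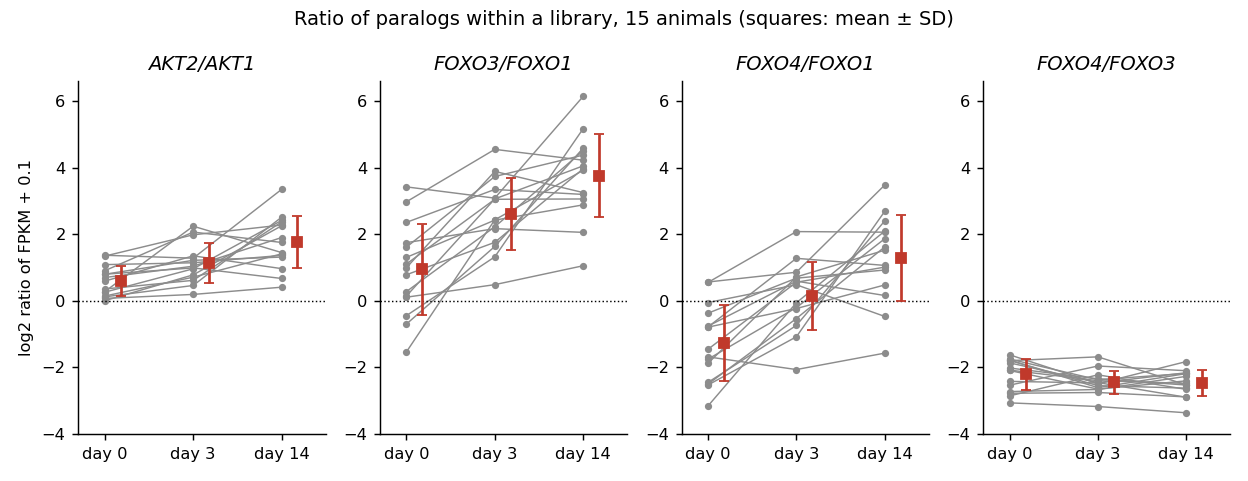
Log2 ratio of paralog pairs within a library (FPKM with 0.1 added) on days 0, 3 and 14, where grey lines are 15 animals, red squares with bars are means ± SD and the dotted line marks equal levels. FOXO4/FOXO1 crosses that line between day 0 and day 14, from a mean of −1.27 to 1.29, while FOXO4/FOXO3 stays near −2.21 to −2.47.

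As a share of the summed FPKM of FOXO1, FOXO3 and FOXO4, FOXO1 went from 32.6% ± 17.7 (SD, n = 15) on day 0 to 14.1% ± 8.999 on day 3 and 7.72% ± 7.17 on day 14. FOXO3 made up 55.6% ± 16.3, 72.5% ± 8.56 and 77.9% ± 6.57 on the same days. FOXO4 held 11.8% ± 3.31, 13.4% ± 2.89 and 14.3% ± 3.43. The FOXO1 share ran from 7.55% to 68.8% on day 0. The shares are a description of the same values as the ratios, and they were not tested again.

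**Figure D4:**
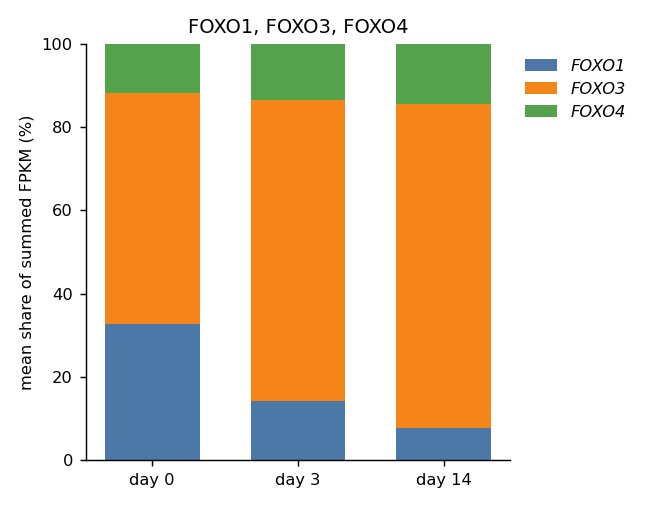
Mean share (%, over 15 animals) of each paralog in the summed FPKM of FOXO1, FOXO3 and FOXO4 on days 0, 3 and 14. The FOXO1 share shrinks from 32.6% to 7.72%, while that of FOXO3 grows from 55.6% to 77.9%.

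The order of the 9 levels changed with these shifts. FOXO3 had the highest median on every day, and INSR and IRS2 the lowest. On day 0 the order below FOXO3 was FOXO1, PIK3R1, AKT2, AKT1, GSK3B and FOXO4, with neighbouring medians as close as 29.5 and 28.5 for FOXO1 and PIK3R1. FOXO1 was above PIK3R1 in 8 of 15 libraries and GSK3B above FOXO4 in 8, so neither pair was separated. By day 14 FOXO4 and AKT2 stood next after FOXO3, at medians of 57.5 and 53.6, with FOXO4 above AKT2 in 6 of 15 libraries. FOXO1 had moved from place 2 to place 5, below PIK3R1 in 15 of 15 libraries. The ranges of neighbours overlapped on each day except those of GSK3B and IRS2 on days 3 and 14.

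Markers of blood cell types were read in the same libraries, since whole blood mixes many cell types. Of 11 tested erythroid markers (such as ALAS2, the first enzyme of haem synthesis in red cells), 5 were higher on day 3 and 11 on day 14, with a median log2 fold change of 2.82 on day 14. Their summed level ran from 477 to 24849 scaled FPKM on day 0 (median 4998), from 4055 to 45695 on day 3 (median 14956) and from 7973 to 68460 on day 14 (median 38023). All 7 platelet markers were higher on day 3 and 2 on day 14, while of 8 neutrophil markers 5 were lower on day 3 and 7 on day 14. The neutrophil sum ran from 152 to 1784 on day 0 (median 447), from 74.98 to 589 on day 3 (median 241) and from 63.8 to 456 on day 14 (median 200). Of 6 NK cell markers 3 were higher on day 14, of 6 monocyte markers 2 were lower, of 6 T cell markers 1 was higher and of 5 B cell markers 1 was lower. Of all tested genes, 6.01% were higher and 6.19% lower on day 3, and 18.8% higher and 17.3% lower on day 14. The T cell and B cell counts lay near these shares. The median log2 fold change of the T cell markers on day 14 was −0.06, with 2 of the 6 above 0. No marker list had a gene at 0 in every sample.

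The change of AKT2, FOXO3 and FOXO4 in an animal followed the change of its erythroid markers. Over the 15 animals, the change from day 0 to day 14 correlated with that of the mean log2 level of the 11 erythroid markers with r = 0.95 and rho = 0.96 for FOXO3, r = 0.95 and rho = 0.93 for FOXO4, and r = 0.91 and rho = 0.91 for AKT2. The adjusted p of each r was 6.0e-05 (two-sided permutation test, 18 relations with 9 genes and 2 marker lists), and the unadjusted 1e-05 is the smallest that 100000 permutations can give. The adjusted p of rho was 9.0e-05, 9.0e-05 and 1.20e-04. Without the 2 animals farthest from the median of the marker change, r was 0.94, 0.92 and 0.90. Animal 13, the only one whose erythroid markers were lower on day 14 (log2 change −0.49), was also the only one with less AKT2, and animals 8 and 9, with the largest marker changes (5.39 and 5.87), had the largest FOXO3 changes (5.07 and 4.73). For FOXO1, r was −0.59 (adjusted p = 0.0633) and rho was −0.67 (adjusted p = 0.0286), with r = −0.62 without the 2 farthest animals and r = −0.68 without TMM scaling (adjusted p = 0.0215). The adjusted p for r of INSR, IRS2, PIK3R1, AKT1 and GSK3B with the erythroid markers lay between 0.0853 and 0.839, and without TMM scaling that of PIK3R1 passed with the sign turned (r = −0.62, adjusted p = 0.0449). Both changes come from the same 2 libraries of an animal and share their scaling factors, and the part of red cell precursors in these results was not tested.

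With the neutrophil markers, the change of IRS2 had r = 0.68 and rho = 0.67 (adjusted p = 0.0257 and 0.0286), and that of GSK3B had r = 0.63 and rho = 0.62 (adjusted p = 0.0475 and 0.0488). Without the 2 farthest animals r was 0.78 for IRS2 and 0.79 for GSK3B, and it went from 0.54 to 0.76 for INSR, from 0.23 to 0.62 for FOXO3, from 0.31 to 0.61 for FOXO4 and from 0.13 to 0.44 for AKT2, so these values rest in part on those 2 animals. Without TMM scaling r was 0.54 for IRS2 (adjusted p = 0.0830) and 0.23 for GSK3B (adjusted p = 0.561), so neither passed. For the other 7 genes the adjusted p of r with the neutrophil markers was between 0.0853 and 0.783. The part of neutrophils in the fall of GSK3B was not tested.

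**Figure D5:**
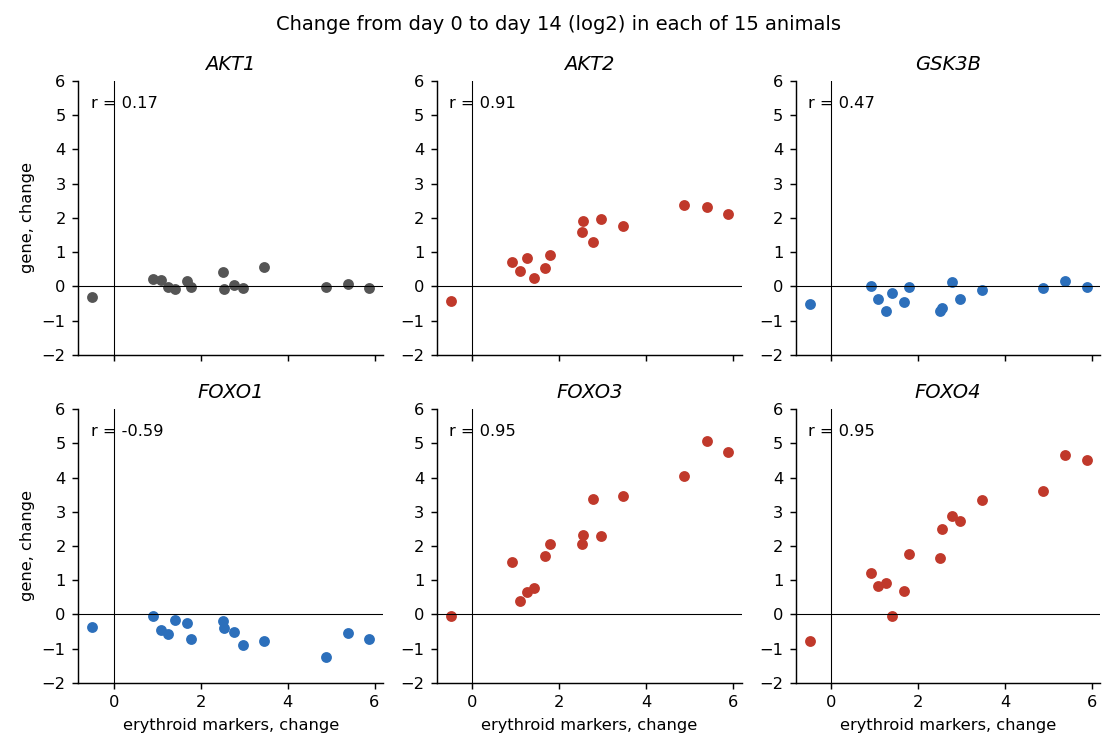
Change from day 0 to day 14 in 15 animals, for 6 of the genes (y axis, log2 scaled FPKM + 0.1) against the mean of 11 erythroid markers (x axis, same scale), with Pearson's r. Points of AKT2, FOXO3 and FOXO4 climb with the markers (r = 0.91, 0.95 and 0.95), whereas AKT1 stays between −0.31 and 0.56 across the whole range of marker changes (r = 0.17).

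Other paralogs and partners of these genes moved in both directions. Of 11 tested, 2 were higher and 6 lower on day 14 (36.0% of all genes were called), and their median log2 fold change was −0.52. Without TMM scaling 2 were higher and 8 lower, when 7.79% of all genes were higher and 41.8% lower. GSK3A, the paralog of GSK3B, went from 4.09 ± 2.21 to 13.5 ± 15.1 (1.42, SE 0.27, adjusted p = 8.27e-05, higher in 13 animals), opposite to GSK3B. IGF1R, the receptor for insulin-like growth factor, fell from 3.29 ± 2.70 to 1.35 ± 0.347 in 15 of 15 animals (log2 fold change −0.96, adjusted p = 7.97e-04, or −0.54 and 0.0129 without animals 7, 11 and 15), and IRS1 fell from 0.692 ± 0.223 to 0.455 ± 0.160 (−0.52, adjusted p = 0.00958).

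The catalytic subunits of phosphoinositide 3-kinase that are typical of leukocytes fell as well. PIK3CG went from 56.7 ± 23.4 to 35.4 ± 5.20 (log2 fold change −0.60, adjusted p = 3.90e-04, lower in 15 animals) and PIK3CD from 46.0 ± 14.7 to 29.8 ± 4.10 (−0.57, adjusted p = 4.66e-04, lower in 14). PIK3CB (−0.55, adjusted p = 0.0129) and the regulatory subunit PIK3R5 (−0.66, adjusted p = 0.0103) were lower in 12 animals each. PIK3CA (−0.05, adjusted p = 0.701), PIK3R2 (−0.17, adjusted p = 0.311) and PIK3R3 (0.23, adjusted p = 0.231, and 0.0403 with the animal as a block) were not called. Without TMM scaling PIK3CA (−0.48, adjusted p = 1.73e-04) and PIK3R2 (−0.56, adjusted p = 0.0134) were called lower. INSRR, IRS4 and FOXO6 were below the filter. When the RNA integrity number was a covariate, the share of all genes called on day 14 went from 36.0% to 19.9%. IGF1R (−0.62, adjusted p = 0.0711), IRS1 (−0.46, adjusted p = 0.0788), PIK3CB (−0.37, adjusted p = 0.210) and PIK3R5 (−0.48, adjusted p = 0.156) were then no longer called. PIK3CB was not called without animals 7, 11 and 15 (−0.37, adjusted p = 0.0738). On day 3, 1 of the 11 genes was called, PIK3CG, at −0.42 (adjusted p = 0.0287), beside 12.2% of all genes, and 4 were with the animal as a block, beside 19.2%. Without animals 7, 11 and 15, PIK3CG was at −0.19 on day 3 (adjusted p = 0.365), and the 1 gene called (5.90% of all genes were) was GSK3A, which was higher (0.78, adjusted p = 0.0417, against 0.0532 with all animals) and was named for day 3 after its values were seen.

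Of 22 tested regulators that act between the receptor and AKT, 3 were higher and 9 lower on day 14, with a median log2 fold change of −0.27, beside 36.0% of all genes called (18.8% higher and 17.3% lower). Without TMM scaling 1 was higher and 15 lower, with a median of −0.70, beside the same 7.79% and 41.8% of all genes. On day 3 there were 4 higher and 5 lower, beside 12.2% of all genes, and 2 and 1 without animals 7, 11 and 15, beside 5.90%. PHLPP2, a phosphatase that removes an activating phosphate from AKT, rose from 8.56 ± 5.03 to 26.7 ± 20.7 scaled FPKM (log2 fold change 1.52, adjusted p = 1.23e-04, higher in 14 animals). Its paralog PHLPP1, named after its values were seen, fell from 3.39 ± 0.544 to 2.34 ± 0.349 in 15 of 15 animals (−0.51, SE 0.09, adjusted p = 3.53e-05). The adaptor SHC1 (0.39, adjusted p = 5.79e-04) and MAPKAP1, a subunit of the mTORC2 complex that activates AKT (0.29, adjusted p = 0.00459), were also higher, but without TMM scaling their values were −0.03 and −0.13, and MAPKAP1 was not called with both the RNA integrity number and the block (0.28, adjusted p = 0.0618). SOCS3, an inhibitor of cytokine and insulin receptor signalling, fell from 33.4 ± 31.8 to 6.599 ± 2.80 (−1.85, adjusted p = 2.66e-05, lower in 12 animals). TRIB1, a pseudokinase (−1.23, adjusted p = 8.04e-04), the ubiquitin ligase CBL (−1.12, adjusted p = 1.41e-05) and the adaptor SH2B2 (−0.97, adjusted p = 2.57e-04) fell too. PDPK1 was not analysed here.

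Among 19 tested genes of mTORC1 and other outputs of AKT, 6 were higher and 4 lower on day 14, beside 36.0% of all genes called (18.8% higher and 17.3% lower), and the median log2 fold change was −0.01. Without TMM scaling 3 were higher and 10 lower, with a median of −0.43, beside 7.79% of all genes higher and 41.8% lower and a median of −0.36. Those that rose most were AKT1S1, a subunit of mTORC1 that AKT phosphorylates (1.07, adjusted p = 7.31e-05), RPTOR, its scaffold (0.998, adjusted p = 3.06e-04), RHEB, its activating GTPase (0.75, adjusted p = 2.10e-04, higher in 15 animals), and the ribosomal protein gene RPS6 (0.72, adjusted p = 0.0172). RPS6 was not called without TMM (0.29, adjusted p = 0.281), nor, at values closer to 0.72, without animal 14 (0.60, adjusted p = 0.0564), without animals 7, 11 and 15 (0.68, adjusted p = 0.0773) or with the RNA integrity number (0.57, adjusted p = 0.157). The glycolytic regulator PFKFB3 (−1.23, adjusted p = 4.82e-04), the AKT-related kinase SGK1 (−0.65, adjusted p = 0.00801, lower in 15 animals), the mTORC1 brake TSC1 (−0.50, adjusted p = 0.00200) and the glycogen synthase gene GYS1 (−0.47, adjusted p = 0.00953) fell. With the RNA integrity number SGK1, TSC1 and GYS1 were at −0.25, −0.29 and −0.34 and not called (adjusted p = 0.432, 0.140 and 0.156), nor was GYS1 without animals 7, 11 and 15 (−0.26, adjusted p = 0.115). On day 3, 2 of the 19 genes were higher and 2 lower (12.2% of all genes were called), or 4 and 3 with the animal as a block (19.2% of all genes) and 0 and 1 without animals 7, 11 and 15 (5.90% of all genes).

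Genes known as transcriptional targets of FOXO factors divided evenly. Of 28 tested, 7 were higher and 7 lower on day 14, beside 36.0% of all genes called (18.8% higher and 17.3% lower). Their median log2 fold change was −0.06, against −0.02 for all tested genes. Without TMM scaling 6 were higher and 16 lower, beside 7.79% and 41.8% of all genes. GADD45A, a growth arrest gene, rose from 31.7 ± 27.1 to 163 ± 84.4 scaled FPKM in 15 of 15 animals (2.63, SE 0.36, adjusted p = 1.17e-06). MXI1, an antagonist of MYC (2.21, adjusted p = 4.55e-05), SESN3, a stress-response gene that restrains mTORC1 (1.96, adjusted p = 9.70e-05), and PINK1, a kinase that marks damaged mitochondria (1.59, adjusted p = 8.69e-05), rose in 13 or 14 animals. KLF2, a factor that keeps T cells quiescent, fell from 141 ± 37.5 to 80.0 ± 10.5 in 15 of 15 animals (−0.79, adjusted p = 1.29e-06). The repressor BCL6 (−1.59, adjusted p = 7.73e-05) and TRIB1, which is on this list too, were lower. On day 3, 3 of the 28 were higher and 7 lower (12.2% of all genes were called), and without those 3 animals 1 was higher and 4 lower (5.90% of all genes).

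The genes whose log2 levels over the 45 samples were most like each member were found by Pearson's r, as a description over samples that share animals and time points. FOXO3 was closest to MARCH8 (r = 0.99), EPB41 (0.98) and DCAF12 (0.98), of which EPB41 encodes a protein of the red cell membrane skeleton. FOXO4 was closest to FAM214B (0.97), BSDC1 (0.96) and BABAM1 (0.96), and AKT2 to ASCC2 (0.96), STK11 (0.96) and MAF1 (0.96). FOXO1 was closest to BACH2 (0.91), a repressor of lymphocytes, ZNF460 (0.90) and KCNQ5 (0.90). The nearest genes of GSK3B were SEC24B (0.89), BRAF (0.88) and KDM6A (0.87), and those given for IRS2 are ULK1 (0.82) and ZNF516 (0.81). INSR was nearest to LRP1 (0.80), AP3D1 (0.79) and ATP2A2 (0.79), PIK3R1 to FRYL, CHD9 and FBXO28 (0.77, 0.77 and 0.73), and AKT1 to FUT11, CXXC1 and SMARCD2 (0.75, 0.74 and 0.73).

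Among the members, FOXO3 and FOXO4 had r = 0.96, AKT2 and FOXO4 r = 0.94, and AKT2 and FOXO3 r = 0.92. FOXO1 ran against all 3, with r = −0.72 for FOXO4, −0.71 for AKT2 and −0.65 for FOXO3. AKT1 and AKT2 had r = −0.07, and INSR and IRS2 had r = 0.55. Ranked by r among 18752 genes, FOXO3 stood at place 7 for FOXO4 and AKT2 at place 10990 for AKT1.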

How the data were processed

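RNA-seq was run on PAXgene whole blood of 15 animals at 3 time points. Per the labels and the study's methods, libraries were stranded with ribosomal and globin RNA removed. The authors demultiplexed reads with bcl2fastq 2.17, aligned them with STAR to Chlorocebus_sabeus 1.1 and counted fragments with HTSeq, per the submitters' processing notes and the methods. The versions of STAR and HTSeq, and the handling of strand and of reads shared by near-identical genes, are not given in the sources used here. The authors deposited FPKM per gene symbol, with no scaling between libraries beyond the total. All 1011768 values above 0 were whole multiples of 1 fragment (tolerance 0.05), which gave back the counts and totals. The median total was 22963984 on day 0, 22754349 on day 3 and 22758495 on day 14. All 9 symbols matched protein-coding genes of the RefSeq table for mChlSab1.0.hap1, another assembly, so no coordinates or sequences are given.

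FPKM were divided by TMM factors, 0.1 was added, and log2 values of the 18753 genes with more than 0.5 CPM in at least 3 samples were fitted with limma 3.58.1 (R 4.3.3), with 1 mean per time point over all 45 samples. The fit was also run on simulated counts. These had no animal effect and were fitted without TMM scaling, unlike the data, so no conclusion is drawn from them. Ratios of paralogs used an exact sign-flip test over 15 animals. Correlations used 100000 permutations. Samples are paired by the animal in the labels: after removal of time point means, samples of 1 animal had a mean r of 0.328 (45 pairs) and samples of different animals −0.0231. Alternatives were the animal as a block, no TMM, median-of-ratios factors, the RNA integrity number as a covariate with and without the block, other pseudocounts, no filter, voom on recovered fragments, and leaving out animals. Leaving out animals 7, 11 and 15 together was chosen after seeing the data. The members and gene lists were chosen with earlier results of these data known, and lists are described by counts and medians. Named genes were all members, the 3 genes most like each, every tested paralog, and up to 4 genes per list and direction with the largest called change on day 14 vs. day 0, of which 3 genes are not reported here but stay in the counts. TRIB1 and PIK3IP1 are on 2 lists.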

Additional observations from a re-analysis of the deposited data

How the results depend on the processing

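The rises of AKT2, FOXO3 and FOXO4 on day 14 and the fall of FOXO1 on day 14 kept their direction and passed the threshold under every alternative run. With the animal as a replicate block, 5 of the 27 member comparisons became called and 0 were lost, while the share of all genes called went from 12.2% to 19.2% (day 3 vs. day 0), 36.0% to 44.0% (day 14 vs. day 0) and 13.4% to 23.7% (day 14 vs. day 3). Those were FOXO1 on day 3 and, between day 3 and day 14, INSR, AKT2, FOXO1 and FOXO4, where the count went from 0 to 4. For that interval the count was 5 without TMM (INSR, IRS2, AKT1, FOXO1 and GSK3B, all lower), 1 with median-of-ratios factors, 1 with the RNA integrity number and the block, 2 with a pseudocount of 1, 2 with voom (AKT2 and FOXO1 for both) and 2 without animals 7, 11 and 15 (INSR and AKT2). When 1 animal was left out, the number of called members was 0 to 2 for day 14 vs. day 3 and 2 to 3 for day 3 vs. day 0, and it stayed at 5 for day 14 vs. day 0. The share of all genes called then ran from 4.23% to 16.6%, from 7.28% to 12.6% and from 31.4% to 36.8%, in the same order. Without TMM, 8 members were called on day 14 vs. day 0 (3 higher and 5 lower), and the median of all genes was −0.36, against −0.02 with TMM. The 20 genes with the most fragments held a mean of 10.8% of a library's fragments on day 0 and 23.1% on day 14. Without TMM the counts over all genes on day 14 vs. day 0 were 1460 higher and 7830 lower, against 3517 and 3239 with it. On day 14 vs. day 3 they were 606 and 6600 without TMM, against 1572 and 939, and the median was −0.35.

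Some directions turned. Without TMM these were PIK3R1 (−0.34 for day 14 vs. day 0, −0.21 for day 14 vs. day 3), AKT1 (−0.36), MAPKAP1 (−0.13), SHC1 (−0.0324) and PIK3R3 (−0.15). With the RNA integrity number they were INSR (0.0254, and 0.18 with the block), AKT1 (−0.0395), PIK3CA (0.0103) and, on day 14 vs. day 3, GSK3B (0.0184). Without animals 7, 11 and 15 they included INSR on day 14 (0.0840), IRS2 on day 3 (0.12) and the log2 level ratio of FOXO4 to FOXO1 on day 3 (−0.16), and the FOXO3 to FOXO1 ratio on day 0 was 0.56. Without these animals PIK3CB on day 3 went from −0.13 to 0.10 and PIK3R5 from −0.27 to 0.00115, neither of them called. The change of FOXO4/FOXO3 on day 3 passed with a pseudocount of 1 (−0.28) and with the RNA integrity number and block (−0.34), and without animal 12 or 15 (−0.30 each, p = 0.0308 and 0.0288 by the exact sign-flip test, adjusted). On day 14 it did not pass with a pseudocount of 0.01 (−0.26) or without the pairing (−0.26). Leaving out 1 animal gave −0.30 to −0.20 for day 3 vs. day 0, −0.31 to −0.21 for day 14 vs. day 0, and −0.0686 to 0.0388 on day 14 vs. day 3 for it (above 0 without animals 2, 13 and 15), and 0.52 to 0.73 for AKT2/AKT1 on day 14 vs. day 3. Without TMM, correlations with the erythroid markers were −0.36 for INSR, −0.12 for IRS2, −0.62 for PIK3R1, −0.60 for AKT1 and −0.56 for GSK3B, and with the neutrophil markers −0.0759 for AKT1, −0.48 for AKT2, −0.22 for FOXO3 and −0.14 for FOXO4. List counts on day 14 moved to 22 for FOXO targets without TMM, to 4 (paralogs) and 5 (AKT outputs) with the RNA integrity number, and to 5 (paralogs) with that number and the block, when calls over all genes fell from 36.0% to 19.9% and 21.7%. The causes were not tested.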
